A study of Mus musculus with 20 samples.

Results

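The 10 genes described here carry leptin and insulin signals in the arcuate nucleus (ARC) and the FoxO factors at the end of the insulin branch. They were found by gene symbol in the deposited normalised tables and joined by gene identifier to the raw counts, which list 22048 genes. The set was Jak2 and Stat3, the kinase and transcription factor of the leptin receptor, Irs1, Irs2 and Pik3r1, which pass on the insulin signal, the brakes Socs3, Ptpn1 and Ptpn2, and the transcription factors Foxo1 and Foxo3. All 10 were tested in every fit.

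RNA was sequenced from laser-captured ARC of male C57BL6/J mice, 10 weeks old per the labels. Mice drank vehicle (1% ethanol) or corticosterone (Cort, 75 µg/ml in the same ethanol) for 2 days or 4 weeks, with 5 vehicle and 5 Cort samples in each of the 2 datasets. All mice of the 4 week dataset, vehicle included, were also fasted for 16 h and refed for 24 h before collection, still on their treatment. The datasets also differed in section thickness, laser system and sequencer. The labels give the same age for both although treatment lasted 2 days or 4 weeks, so age at collection may differ too. A difference between 2 days and 4 weeks cannot be told apart from any of these. Oral Cort raises circulating glucocorticoid in the whole animal, so the captured cells were exposed both to the hormone and to whatever else changed in the treated mice.

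Leptin binds its receptor on ARC neurons and activates JAK2, which phosphorylates STAT3. STAT3 then enters the nucleus and induces genes that include Socs3, whose product blocks JAK2, while the phosphatases PTP1B (Ptpn1) and TC-PTP (Ptpn2) remove phosphate from the kinases and receptors. Insulin works through the docking proteins IRS1 and IRS2, which bind p85α (Pik3r1), the regulatory subunit of PI 3-kinase. The kinase AKT downstream holds FoxO1 and FoxO3 outside the nucleus, and FoxO1 in the nucleus is known to favour Agrp and Npy over Pomc. Most of these steps are phosphorylations, which RNA does not measure.

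Samples of the 2 day dataset held between 2487063 and 5748223 counts, and those of the 4 week dataset between 1065776 and 5196364. The study left out 3 samples of each dataset that stood apart (C07, C08 and C09 at 2 days, C01, C05 and C06 at 4 weeks, named by barcode), which left 3 vehicle and 4 Cort samples. Values below are for these 7 samples unless all 10 are named, and levels are in CPM, counts relative to library size, with TMM scaling. The summed level of 12 classic glucocorticoid-induced genes was 897 to 1098 CPM in vehicle and 1415 to 2060 CPM in Cort at 2 days, and 511 to 852 CPM against 1182 to 1551 CPM at 4 weeks, without overlap among these samples at either time. The left-out vehicle sample C07 at 2 days measured 1627 CPM, within the Cort range, and the left-out Cort sample C06 at 4 weeks 1027 CPM, between the groups. The biological coefficient of variation was 40.3% at 2 days and 79.7% at 4 weeks. Defining markers of ARC neurons were detected in both datasets. Their summed level was 1286 to 1724 CPM in vehicle and 1834 to 2443 CPM in Cort at 2 days. At 4 weeks it was 967 to 1410 CPM against 484 to 977 CPM. The 8 markers include Agrp, Npy and Pomc, so this sum also carries the changes of these peptide genes themselves. Agrp alone averaged 170 CPM in vehicle and 423 CPM in Cort at 2 days, and Npy 445 and 89.8 CPM at 4 weeks. The oligodendrocyte sum was 686 to 754 CPM in vehicle against 779 to 1253 CPM in Cort at 2 days, and 1157 to 1297 CPM against 509 to 1213 CPM at 4 weeks. The part of these shifts in the values below was not tested. In such bulk samples fewer cells of a type and less RNA per cell cannot be told apart.

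Across the 2 day dataset the 10 genes spanned a wide range of levels. Compared per kb of exon over all 10 samples, Pik3r1 had the highest median at 22.3 CPM per kb and Irs2 came next at 16.1 CPM per kb. Foxo1, Stat3, Jak2 and Foxo3 followed between 11.99 and 9.13 CPM per kb, then Ptpn1 and Ptpn2 at 4.90 and 4.21 CPM per kb. Irs1 and Socs3 were lowest, at 2.05 and 1.09 CPM per kb. Pik3r1 exceeded Irs2 in 9 of 10 samples and Irs2 exceeded Foxo1 in 9 of 10, whereas Foxo1, Stat3, Jak2 and Foxo3 changed places from sample to sample, each exceeding the next in only 5 or 6 of 10. The insulin docking proteins sat far apart in the order, with Irs2 at 4.42 to 20.9 CPM per kb and Irs1 at 1.08 to 4.05 CPM per kb, without overlap. Other genes overlap 30.9% of the Irs1 exon length and 2.56% of that of Irs2. If reads were lost there, the level of Irs1 per kb is too low, and the separation may depend on this, which was not tested.

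In the 4 week dataset the median order was Irs2, Pik3r1, Stat3 and Foxo1, from 21.1 to 17.2 CPM per kb, then Jak2 at 9.48, Foxo3 at 7.87, Socs3 at 4.33, Irs1 at 3.28, Ptpn2 at 1.72 and Ptpn1 at 1.45 CPM per kb. Neighbours in this order exceeded each other in 5 to 8 of 10 samples, so no adjacent pair was separated beyond the spread.

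**Figure D1:**
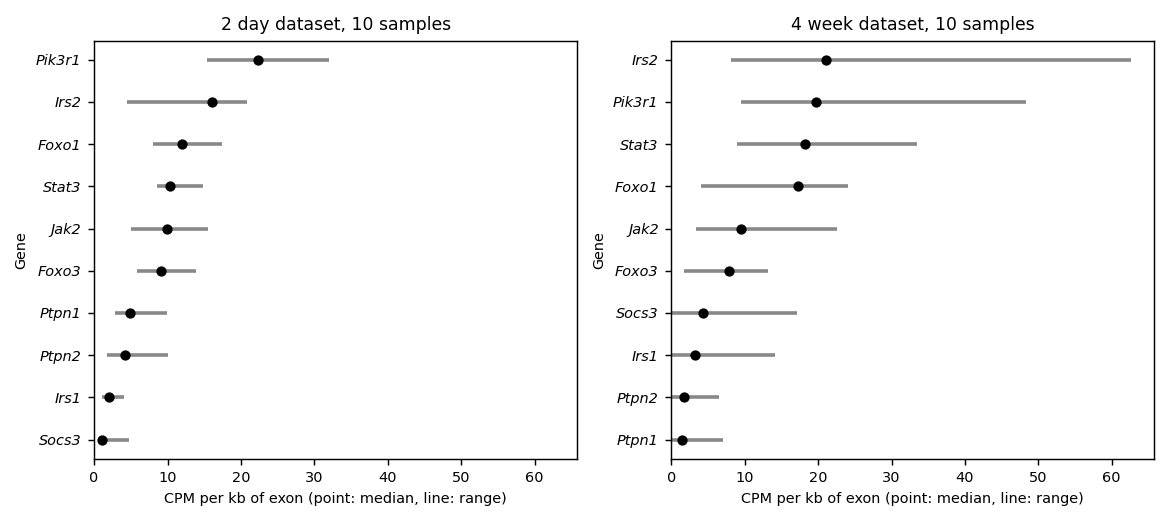
Level of the 10 genes per kb of exon in CPM, as the median (point) and range (line) over the 10 samples of each dataset. Pik3r1 and Irs2 lead in both datasets, and the ranges of all but Ptpn1 and Ptpn2 are wider at 4 weeks.

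None of the 10 genes passed the edgeR quasi-likelihood test at an adjusted p below 0.1 after 2 days of Cort or after 4 weeks. The background was 0.065% of 12309 genes at 2 days and 0.0446% of 11211 genes at 4 weeks, so few sets of this size would hold a called gene. At an unadjusted p below 0.05, 0 of the 10 passed at either time, against 5.97% and 4.91% of all genes. DESeq2 also called 0 of the 10, and 0 had its unadjusted p below 0.05. With all 10 samples of each dataset 0 of the 10 genes were called, with 0.0167% of genes called at 2 days and 0.00962% at 4 weeks.

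At 2 days 7 of the 10 log2 fold changes (Cort over vehicle) were positive, with a median of 0.26 beside 0.018 over all genes tested. At 4 weeks 7 of the 10 were negative, with a median of -0.25 beside 0.038 over all genes. The median size without sign was 0.29 at 2 days beside 0.26 over all genes, and 0.45 at 4 weeks beside 0.51. Both sizes lay near those of all genes. Vehicle and Cort ranges were separate for 0 of the 10 genes at 2 days, where this held for 6.63% of all genes, and for 1 gene, Foxo3, at 4 weeks, where it held for 6.53%. With all 10 samples it held for 0 of the 10 genes at either time, beside 0.801% and 0.942% of genes.

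**Figure D2:**
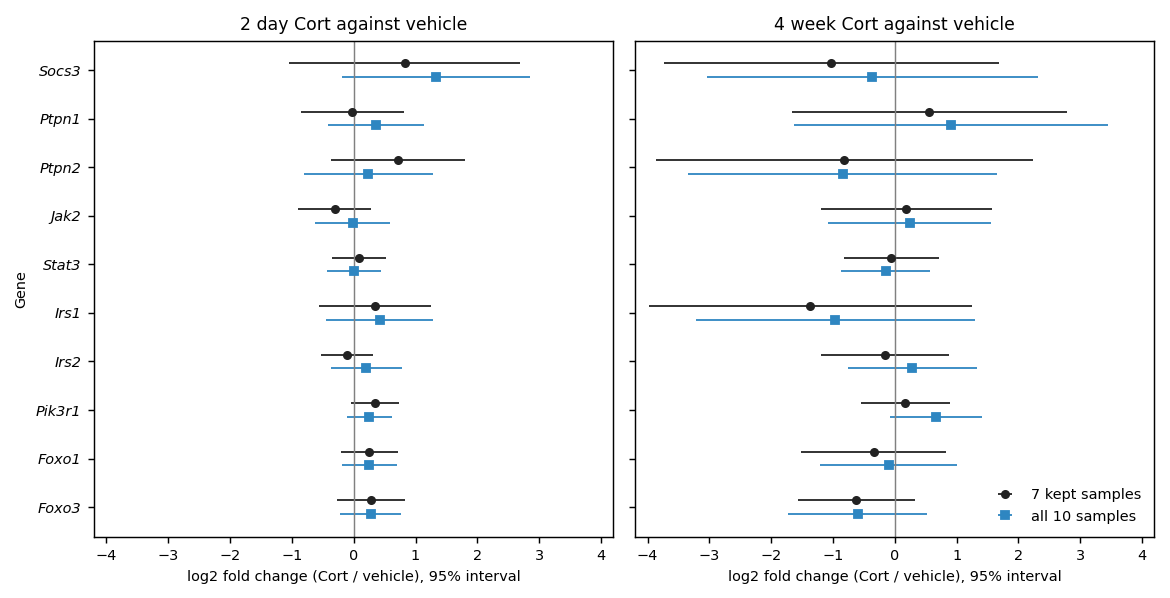
Log2 fold change of Cort over vehicle with its 95% interval for the 10 genes at 2 days (left) and 4 weeks (right), from the 7 samples kept (black circles) and from all 10 samples (blue squares). Every interval crosses 0, and the 4 week intervals are the wider ones.

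On the leptin side, Jak2 and Stat3 were both well expressed and neither moved with Cort beyond the spread. Jak2 was 43.8, 71.6 and 77.9 CPM in the 3 vehicle samples at 2 days and 38.7 to 68.4 CPM in the 4 Cort samples. The groups overlapped, and the log2 fold change was -0.31 (95% interval -0.90 to 0.28, edgeR adjusted p = 0.933). At 4 weeks Jak2 ranged from 25.0 to 83.2 CPM in vehicle and from 16.9 to 113 CPM in Cort, with the Cort range enclosing the vehicle range.

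Stat3 was 128, 95.9 and 102 CPM in vehicle at 2 days, and 134, 96.0, 91.8 and 137 CPM in Cort. Both groups held high and low samples, and the log2 fold change of 0.09 had an interval of -0.34 to 0.53. At 4 weeks Stat3 was 169, 149 and 186 CPM in vehicle and 218, 84.8, 175 and 172 CPM in Cort, so that Cort held both the highest and the lowest sample. The log2 fold change was -0.06 (interval -0.82 to 0.71). On the linear scale that interval runs from 0.565-fold to 1.63-fold, and the 2 day interval from 0.788-fold to 1.44-fold, the narrowest pair of intervals among the leptin genes. Of the Stat3 exon length 0.76% overlaps Stat5a on the other strand.

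**Figure D3:**
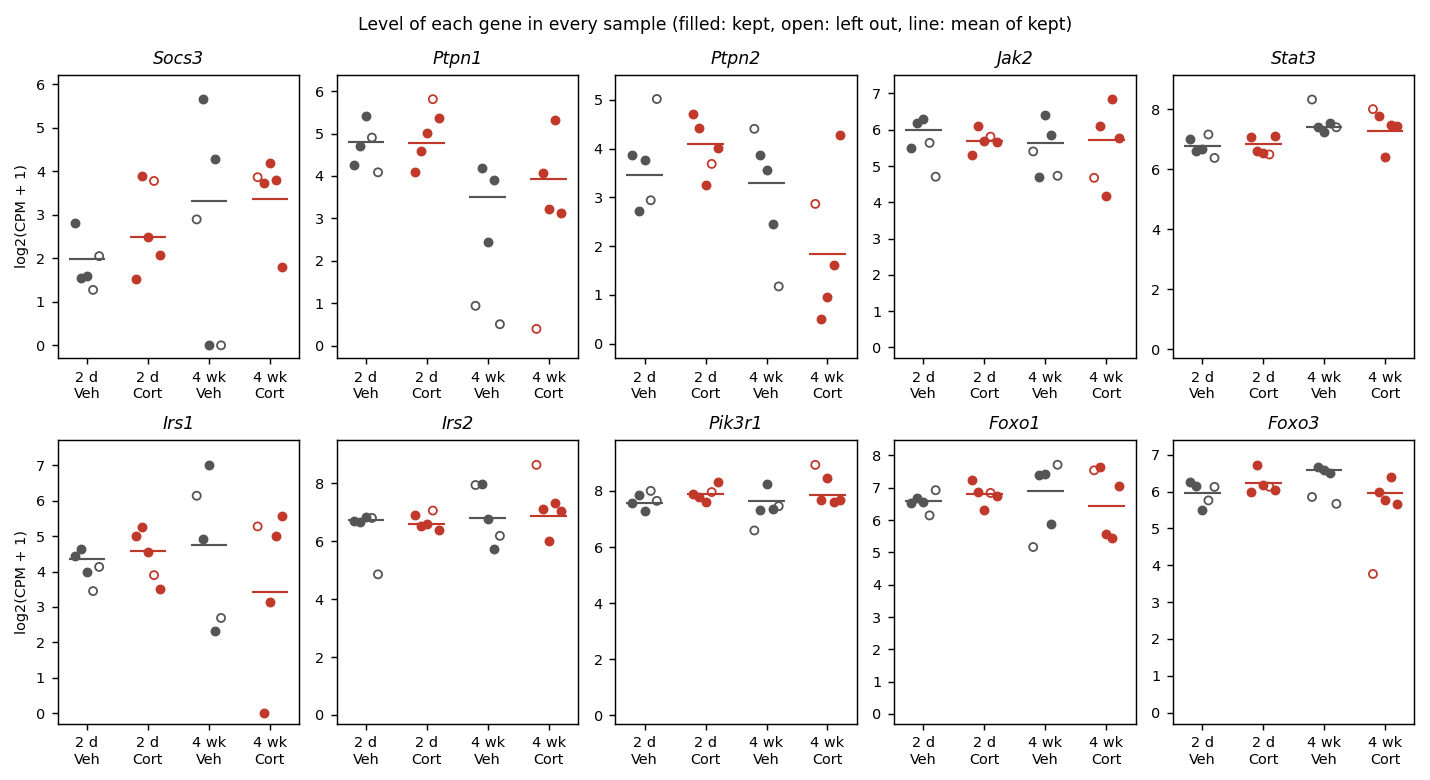
Level of each of the 10 genes in every sample as log2(CPM + 1), for vehicle (grey) and Cort (red) at 2 days and 4 weeks, with samples kept (filled), samples left out (open) and the mean of the kept samples (line). Among kept samples the groups overlap except for Foxo3 at 4 weeks, and Socs3, Ptpn2 and Irs1 spread widely at 4 weeks.

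Among the brakes, Socs3 was the gene with the lowest level at 2 days and one of the most variable. It measured 5.97, 1.94 and 2.03 CPM in vehicle and 1.88, 13.8, 4.64 and 3.18 CPM in Cort. A single Cort sample, C03, lay well above the rest, and the log2 fold change of 0.83 (interval -1.04 to 2.70, edgeR adjusted p = 0.946) became -0.02 without it. With all 10 the value was 1.33 (interval -0.20 to 2.85), with the left-out Cort sample C08 at 12.7 CPM.

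At 4 weeks Socs3 was 49.4, 0 and 18.4 CPM in vehicle and 12.2, 17.1, 12.9 and 2.46 CPM in Cort. Vehicle held both the highest sample and a sample with 0 counts, C03, where a count of 0 allows up to 1.21 CPM. The log2 fold change was -1.03 (interval -3.73 to 1.68), and it was 0.28 without vehicle C02. The left-out vehicle sample C05 was also at 0 counts.

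Ptpn1, which encodes PTP1B, lay between 18.2 and 41.7 CPM in vehicle and between 16.0 and 40.6 CPM in Cort at 2 days, nearly the same range, with a log2 fold change of -0.03 (interval -0.86 to 0.81). At 4 weeks it was 17.2, 4.42 and 13.9 CPM in vehicle and 15.9, 8.33, 38.6 and 7.69 CPM in Cort. Only Cort C09 rose clear of the vehicle range, and the log2 fold change was 0.56 (interval -1.67 to 2.79), or -0.17 without C09. All 3 left-out samples at 4 weeks, from both groups, had a single count of Ptpn1.

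Ptpn2, which encodes TC-PTP, was 13.7, 5.60 and 12.6 CPM in vehicle and 25.3, 20.5, 8.57 and 15.1 CPM in Cort at 2 days. Cort had 3 samples above every vehicle sample and 1 within the vehicle range, and the log2 fold change was 0.72 (interval -0.37 to 1.81, edgeR adjusted p = 0.922). At 4 weeks Ptpn2 was 13.5, 10.9 and 4.48 CPM in vehicle and 0.413, 0.952, 2.06 and 18.4 CPM in Cort. The same pattern turned round, with 3 Cort samples below every vehicle sample and C10 above them all, and the log2 fold change was -0.82 (interval -3.87 to 2.23), or -3.10 without C10. The 3 low Cort values rest on 2, 4 and 4 counts.

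On the insulin side, Irs1 was 20.9, 24.1 and 14.8 CPM in vehicle and 30.9, 37.0, 22.3 and 10.3 CPM in Cort at 2 days, with overlap and a log2 fold change of 0.35 (interval -0.56 to 1.25). At 4 weeks it was 29.1, 129 and 4.03 CPM in vehicle and 0, 7.86, 30.9 and 46.1 CPM in Cort. Both groups ran from low to high, and the log2 fold change of -1.36 (interval -3.98 to 1.25) was 0.35 without vehicle C03. The SD of Irs1 within groups at 4 weeks was 2.65 on the log2 scale, above that of 99.3% of genes tested. Of its exon length 30.9% overlaps Gm9747 on the other strand, so reads there may be shared or lost, depending on a strand setting not given in the sources used here.

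Irs2 contrasted with Irs1 at 2 days. It was 103, 100.02 and 113 CPM in vehicle and 119, 90.3, 96.3 and 83.1 CPM in Cort. Its SD within groups of 0.18 on the log2 scale was above that of only 9.24% of genes. That SD covers the samples kept, and the left-out vehicle sample C09 measured 28.0 CPM. The log2 fold change was -0.11, with an interval of -0.53 to 0.31, or 0.695-fold to 1.24-fold. At 4 weeks Irs2 spread from 51.5 to 248 CPM in vehicle and from 63.3 to 158 CPM in Cort, with the Cort range inside the vehicle range and a log2 fold change of -0.16 (interval -1.20 to 0.88).

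Pik3r1 had the lowest p of the 10 genes at 2 days. It was 190, 231 and 155 CPM in vehicle and 239, 218, 192 and 322 CPM in Cort. Every Cort sample was above 2 of the 3 vehicle samples, yet vehicle C04 exceeded 2 Cort samples. The log2 fold change was 0.35 (interval -0.04 to 0.74, edgeR unadjusted p = 0.0793, adjusted p = 0.865), and leaving out 1 sample at a time gave 0.18 to 0.50. At 4 weeks it was 160, 306 and 163 CPM in vehicle and 204, 348, 194 and 204 CPM in Cort, with a log2 fold change of 0.17 (interval -0.55 to 0.89). The 4 week value over all 10 samples was 0.66 (interval -0.08 to 1.41, edgeR unadjusted p = 0.0776), with the left-out Cort sample C06 at 487 CPM and the left-out vehicle sample C01 at 95.5 CPM.

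At the end of the insulin branch, Foxo1 was 91.1, 102 and 94.1 CPM in vehicle at 2 days, and 151, 116, 77.9 and 106 CPM in Cort. The kept vehicle samples lay close together, but the left-out vehicle samples C07 and C09 measured 69.6 and 120 CPM. That wider range holds every kept Cort sample except the one at 151 CPM. Cort had 3 samples above the range of the kept vehicle samples and 1 below it, and the log2 fold change was 0.25 (interval -0.21 to 0.71). At 4 weeks Foxo1 was 166, 172 and 57.8 CPM in vehicle and 197, 46.4, 42.8 and 133 CPM in Cort. Each group split into high and low samples, and the log2 fold change of -0.34 had an interval of -1.51 to 0.83. An antisense gene, Gm20402, covers 7.78% of the Foxo1 exon length.

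Foxo3 was the gene whose groups stood apart at 4 weeks. At 2 days it was 75.4, 69.6 and 44.3 CPM in vehicle and 62.6, 105, 72.0 and 64.4 CPM in Cort, with overlap and a log2 fold change of 0.28 (interval -0.28 to 0.84). At 4 weeks it was 100.1, 94.5 and 90.5 CPM in vehicle (mean 95.01 ± 4.84, SD, n = 3) and 62.3, 53.3, 83.5 and 50.1 CPM in Cort (mean 62.3 ± 15.0, SD, n = 4).

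Every kept 4 week Cort sample was therefore below every kept vehicle sample for Foxo3. The log2 fold change was -0.62 (interval -1.57 to 0.33) and did not pass the test (edgeR unadjusted p = 0.184, adjusted p = 0.990). It stayed negative, at -0.80 to -0.53, with each sample left out in turn. The left-out vehicle samples C01 and C05 measured 56.9 and 49.9 CPM, within the kept Cort range and just below it, so with all 10 samples the groups overlapped, and the fitted value was -0.60 (interval -1.72 to 0.51). The SD of Foxo3 within the kept groups, 0.26 on the log2 scale, was above that of only 3.34% of genes at 4 weeks. That spread covers the 7 samples kept, and the left-out Cort sample C06 measured 12.6 CPM. The edgeR interval is not set by this SD alone, because edgeR draws the spread of each gene toward that of other genes. The summed level of 6 tanycyte and ependyma markers also separated the kept 4 week groups, at 141 to 326 CPM in vehicle and 75.9 to 138 CPM in Cort. Of these 6 markers 3 were tested, 3 had a negative log2 fold change, 0 were called, and 0 were at 0 counts throughout. The left-out vehicle sample C01 had a sum of 138 CPM, within the Cort range. The 4 week oligodendrocyte and ARC neuron sums given above overlapped and reached lower in Cort, where the ARC neuron sum includes Npy and Agrp. The part of these sums in the Foxo3 difference was not tested.

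The difference between the 4 week and the 2 day effect was tested as an interaction over the 14 samples kept. By edgeR 0 of the 10 genes passed at an adjusted p below 0.1, where 0.0157% of 12777 genes did, and 0 had an unadjusted p below 0.05, where 6.49% did. DESeq2 also called 0 of the 10, and 1, Foxo3, had its unadjusted p below 0.05, beside 6.95% of genes. Foxo3 came nearest in both, with a 4 week minus 2 day difference of -0.90 on the log2 scale (interval -1.91 to 0.11, edgeR unadjusted p = 0.0793, adjusted p = 0.824) and of -0.92 by DESeq2 (unadjusted p = 0.0348, adjusted p = 0.549). Socs3, Irs1 and Ptpn2 had larger point estimates of -1.85, -1.71 and -1.54, with intervals of -5.27 to 1.56, -4.77 to 1.36 and -4.59 to 1.51. Single samples moved each of these estimates. Socs3 was -0.54 without 4 week vehicle C02, and Irs1 was -0.010 without 4 week vehicle C03. Ptpn2 grew in size to -3.86 without 4 week Cort C10, and stayed negative, at -3.86 to -1.15, with each sample left out in turn. The interval of Stat3 ran from -1.01 to 0.72.

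Around these genes, 61 others of the leptin, insulin and FoxO pathways were read from lists. At 2 days 56 of them were tested, 1 passed as higher (Agrp) and 0 as lower, and at an unadjusted p below 0.05 the counts were 6 and 0, beside 3.14% of all genes as higher and 2.83% as lower. At 4 weeks 51 were tested, 0 passed as higher and 1 as lower (Npy), with 2 and 1 at an unadjusted p below 0.05, beside 2.95% and 1.95% of all genes. The median log2 fold change over the tested ones was -0.01 at 2 days and 0.05 at 4 weeks. Kept groups did not overlap for 4 genes as higher and 1 as lower at 2 days, beside 6.63% of all genes. At 4 weeks the counts were 2 and 2, beside 6.53%. Lepr, Igf1r and Npy at 2 days and Cish, Sesn1 and Gsk3a at 4 weeks are described below because their kept groups did not overlap. Their separation and intervals carry that choice and are no support for a change.

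Of the receptors and their adaptors 9 of 9 were tested and 0 passed at either time. The leptin receptor gene Lepr was 4.98, 10.1 and 12.2 CPM in vehicle and 29.4, 17.5, 15.5 and 31.4 CPM in Cort at 2 days. All Cort samples were above all vehicle samples, also over all 10, and the log2 fold change of 1.37 (interval 0.36 to 2.37, edgeR adjusted p = 0.686) did not pass the test over all genes. At 4 weeks Lepr was 12.2, 41.0 and 83.3 CPM in vehicle and 22.9, 12.1, 26.3 and 10.1 CPM in Cort, overlapping, with a log2 fold change of -1.36 (interval -3.07 to 0.35). The difference of the Lepr effects, -2.72 (interval -4.72 to -0.72, edgeR adjusted p = 0.714), did not pass either.

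Igf1r, the receptor for insulin-like growth factor 1, was 57.5 to 79.7 CPM in vehicle and 88.9 to 120 CPM in Cort at 2 days without overlap, with a log2 fold change of 0.55 (interval 0.09 to 1.00, edgeR adjusted p = 0.754). With the left-out samples it overlapped and was 0.14 (interval -0.34 to 0.62). Insr, the insulin receptor gene, was picked for comparison with Lepr after its values were seen. Its log2 fold change was -0.21 (interval -0.69 to 0.27) at 2 days and 0.05 (interval -0.82 to 0.91) at 4 weeks.

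Of the other brakes 10 of 12 were tested at each time and 0 passed. Cish, a STAT-induced relative of Socs3, was 4.06, 3.62 and 4.48 CPM in vehicle and 0, 0, 1.03 and 0 CPM in Cort at 4 weeks. Its groups did not overlap, but they hold only 31 counts in vehicle and 2 in Cort. Cish passed the low-count filter through its vehicle samples alone, so its low Cort values are no support for a change. Only 4 of the fits that left out 1 kept sample still held Cish. The edgeR fit gave a log2 fold change of -4.12 (interval -8.27 to 0.04, adjusted p = 0.990), a size that depends on the prior count. Over all 10 samples the groups stayed apart, at -3.90 (interval -6.86 to -0.94), with the same limit of the filter. That value did not pass either (edgeR adjusted p = 0.968). At 2 days Cish overlapped between groups, at 2.99 to 23.1 CPM in vehicle and 1.37 to 10.0 CPM in Cort.

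Of the genes from PI 3-kinase to mTOR 17 of 18 were tested at each time and 0 passed. Gsk3a, a kinase that AKT inhibits, was 34.5 to 50.7 CPM in vehicle and 54.5 to 118 CPM in Cort at 4 weeks, without overlap, with a log2 fold change of 1.16 (interval 0.11 to 2.22, edgeR adjusted p = 0.990). An antisense gene, 9130221H12Rik, covers 28.3% of its exon length. Gsk3a overlapped over all 10 samples, with the left-out vehicle sample C05 at 230 CPM.

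Of the FoxO partners and targets 14 of 15 were tested at 2 days and 11 of 15 at 4 weeks. Agrp, the appetite-raising peptide that FoxO1 is known to favour, rose at 2 days from 122 to 219 CPM in vehicle to 285 to 520 CPM in Cort, a log2 fold change of 1.32 (interval 0.90 to 1.75, edgeR adjusted p = 0.0103). Over all 10 samples it was 0.81 and did not pass (edgeR adjusted p = 0.923), and without vehicle C02 it was 1.13 and did not pass (edgeR adjusted p = 0.147). Npy, made by the same neurons, had a log2 fold change of 0.49 at 2 days (interval 0.18 to 0.80, edgeR adjusted p = 0.521), without overlap among kept samples. Over all 10 samples the Npy groups overlapped, with the left-out vehicle samples C07 and C09 at 637 and 575 CPM. The log2 fold change was then 0.35 (interval -0.05 to 0.75, edgeR adjusted p = 0.952). Pomc, from the same list, was picked for comparison after its values were seen. It was higher at 2 days too, with a log2 fold change of 0.56 (edgeR adjusted p = 0.543). At 4 weeks that of Pomc was -0.02 (edgeR adjusted p = 0.998).

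At 4 weeks Npy fell from 317 to 541 CPM in vehicle to 49.0 to 181 CPM in Cort, a log2 fold change of -2.31 (interval -3.19 to -1.44, edgeR adjusted p = 0.0966). Over all 10 samples it was -1.34 (edgeR adjusted p = 0.991), and the left-out vehicle sample C01 measured 48.7 CPM. Leaving out any 1 kept sample other than Cort C07 also ended the call, with edgeR adjusted p = 0.417 to 0.636. Agrp at 4 weeks was -0.53 (interval -1.31 to 0.24). Foxo1 itself overlapped between groups at both times, as given above.

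Sesn1, a stress-responsive gene that FoxO factors can induce, was 16.9, 32.6 and 59.1 CPM in vehicle and 62.3, 196, 138 and 125 CPM in Cort at 4 weeks. All kept Cort samples were higher, and the log2 fold change of 1.84 (interval 0.67 to 3.01) missed the edgeR threshold (adjusted p = 0.889) and passed that of DESeq2 (adjusted p = 0.0969). Over all 10 samples the groups overlapped, with the left-out Cort sample C06 at 23.9 CPM. At 2 days its log2 fold change was 0.15 (interval -0.43 to 0.72).

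**Figure D4:**
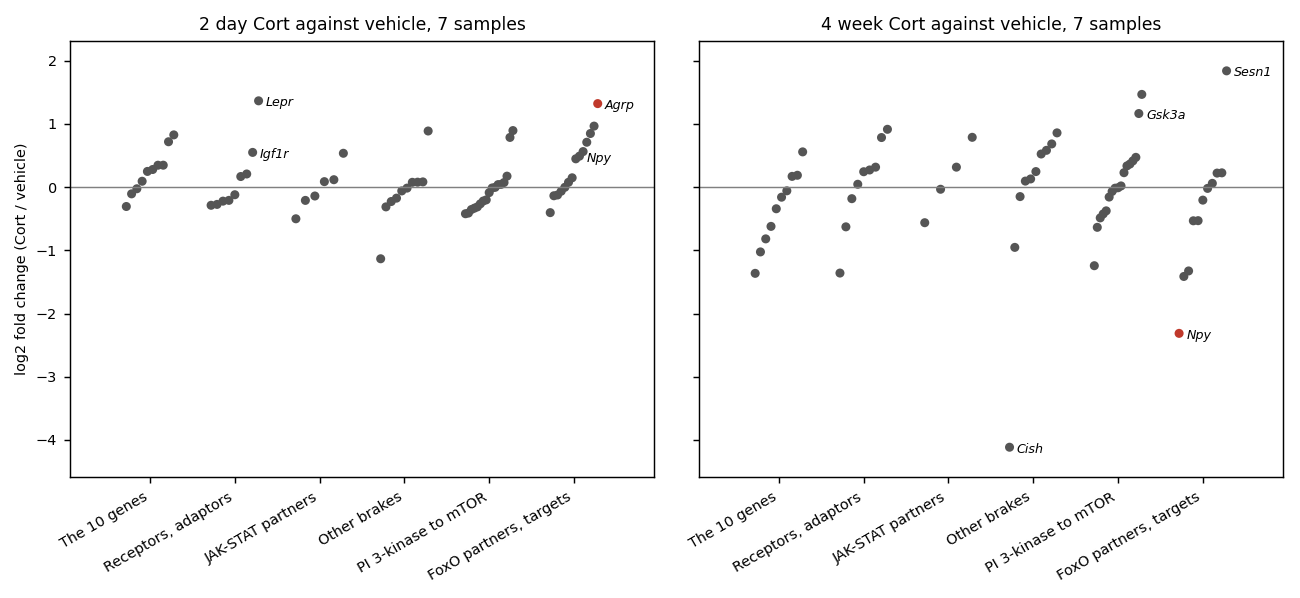
Log2 fold change of Cort over vehicle at 2 days (left) and 4 weeks (right) for the 10 genes and for the tested genes of the 5 lists around them, 1 point per gene and red where the edgeR adjusted p was below 0.1. Agrp at 2 days and Npy at 4 weeks are the red points.

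Start-site windows of 300 bases (250 before and 50 after the start) were available for 9 of the 10 genes, 10 windows in all, from RefSeq on GRCm38.p6. The full glucocorticoid response element, AGAACA and TGTTCT in that order with 3 bases between them, was in 0 of the 10 windows and in 0.00913% of 32851 windows of all genes. Its element TGTTCT alone, on either strand, was in 1, that of Stat3, beside 19.0% of all windows. The STAT motif TTCNNNGAA was in 1, that of Socs3, beside 8.30%, and the FoxO motif GTAAACA was in 0, beside 3.65%. The matches are descriptions of letters in these windows. The pair of windows with a match is shown because both genes sit on the STAT3 branch, in the order Stat3 (chr11:100939491-100939790, minus strand, TGTTCT 147 bases before the start, as its reverse complement) and Socs3 (chr11:117969317-117969616, minus strand, STAT motif 154 bases before the start), 5′ to 3′ with the match in capitals.
Stat3: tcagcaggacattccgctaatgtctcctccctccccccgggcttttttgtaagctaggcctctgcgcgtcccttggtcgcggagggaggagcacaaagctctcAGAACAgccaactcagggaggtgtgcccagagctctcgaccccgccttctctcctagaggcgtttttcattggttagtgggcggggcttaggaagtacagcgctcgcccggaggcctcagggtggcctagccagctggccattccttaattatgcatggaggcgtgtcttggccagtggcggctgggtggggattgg
Socs3: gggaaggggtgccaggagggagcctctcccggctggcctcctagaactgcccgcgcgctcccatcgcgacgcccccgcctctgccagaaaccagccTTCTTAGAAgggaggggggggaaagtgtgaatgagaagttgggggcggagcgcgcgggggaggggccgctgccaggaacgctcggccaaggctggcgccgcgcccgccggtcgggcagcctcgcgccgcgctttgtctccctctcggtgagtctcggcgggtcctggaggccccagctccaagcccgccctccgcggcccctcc
Both genes overlapped between vehicle and Cort at 2 days and at 4 weeks, and a link of these matches to Cort was not tested.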

How the data were processed

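RNA from laser-captured ARC was sequenced by the authors, mapped to GRCm38 and assigned to genes with featureCounts, per the submitters' processing notes, which also name CASAVA 1.7 and DESeq2. The authors deposited the raw count of 22048 genes in 10 samples per dataset, which is what was analysed. Annotation release and strand setting are not given in the sources used here. The normalised tables deposited by the authors hold a signal, the counts divided by DESeq2 size factors, for 7 samples per dataset. Their mean column matched the raw counts of the 7 samples within 0.1% for 100% of genes. Their 14 columns of single samples were not used, because headers at 2 days were attached to the counts of other barcodes. Their fold changes and p-values were not used either. Their symbols were.

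Count columns carry barcodes, which the study's sample list ties to a group but not to a numbered sample. Under these names the glucocorticoid-induced sums separated the kept vehicle and Cort samples of each dataset, and at 2 days the left-out vehicle sample C07 lay within the Cort range. The labels describe each sample as the nucleus of 1 dissection, and nothing in them says more on separate animals, so p-values refer to the spread between these samples. For that spread edgeR draws each gene toward the other genes, so a p-value or interval does not measure the gene's own spread alone.

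After edgeR's filter on low counts and TMM scaling, Cort was compared with vehicle by the quasi-likelihood test of edgeR 4.0.16 in R 4.3.3 (2-sided) with Benjamini-Hochberg adjustment over all genes tested and a threshold of 0.1, in the 7 samples kept by the study. Intervals are 95%. A count of 0 allows up to 3 counts, which covers counting error alone because amplified reads are not independent molecules. Alternatives were DESeq2 1.42.0, limma 3.58.1 voom with sample weights, other scalings and filters, all 10 samples, and each sample left out. The fits were tested on simulated data. Figures used Python 3.11.15 and matplotlib 3.10.9.

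The 10 genes and the lists were chosen with earlier results of these data known. Of the list genes, those called were named, and, where fewer than 4 were, those with the largest change among genes without overlap, up to 4 per dataset. Insr and Pomc were added for comparison after their values were seen. Marker lists give summed levels only. VMH, astrocyte, microglia, endothelial, tanycyte, pars tuberalis and choroid plexus sums were also computed. No gene set test was run.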

Additional observations from a re-analysis of the deposited data

Results flagged for a closer look

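In 60 groups of 4 or 5 samples, 6 held a sample of one of the 10 genes far from the others by Dixon's test. Its nominal rate of about 1 in 20 holds for independent, normally distributed values. Each Cort group was tested over all 5 samples and over the 4 kept, on CPM without a log scale, so that rate need not hold here. Irs2 was 28.0 CPM in the left-out 2 day vehicle sample C09, with the nearest other at 100.02 CPM. Foxo3 was 105 CPM in 2 day Cort C03, nearest 72.0 CPM, flagged among all 5 Cort samples only. Ptpn2 was 18.4 CPM in 4 week Cort C10, nearest 2.06 CPM, flagged among the 4 kept only. Stat3 was 319 CPM in the left-out 4 week vehicle sample C01, nearest 186 CPM. Irs2 was 396 CPM in the left-out 4 week Cort sample C06, nearest 158 CPM. Pik3r1 was 348 CPM in 4 week Cort C08, nearest 204 CPM, flagged among the 4 kept only, with the left-out C06 at 487 CPM.

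The Cort effect on Npy differed between the datasets, by -2.80 on the log2 scale (4 week minus 2 day, edgeR adjusted p = 0.0677, 14 samples). Over all 10 samples per dataset it was -1.70 and did not pass (edgeR adjusted p = 0.719), nor did it under voom (-2.60, adjusted p = 0.735). It was also lost in 9 of the 14 fits that left out 1 kept sample, where edgeR adjusted p was 0.1201 to 0.452.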

How the results depend on the processing

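No setting called any of the 10 genes at 2 days, at 4 weeks or in the interaction, and the lowest adjusted p over all settings was 0.680, 0.760 and 0.462. Direction was kept in 130 of 139 values at 2 days, 124 of 137 at 4 weeks and 196 of 207 for the interaction. At 2 days it turned over all 10 samples for Ptpn1 (0.36) and Irs2 (0.20), and under voom for the same genes (0.14 and 0.12). At 4 weeks it turned over all 10 samples for Irs2 (0.28) and under voom for Socs3 (1.06) and Irs2 (0.14). In the interaction it turned over all 10 samples for Irs2 (0.0857), Pik3r1 (0.41) and Igf1r (0.33), and under voom for Socs3 (0.19), Irs2 (0.032) and Pik3r1 (0.0813). The cause was not tested.

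Leaving out 1 kept sample at a time turned the sign of these log2 fold changes, given as lowest to highest. At 2 days the ranges were -0.018 to 1.55 for Socs3, -0.26 to 0.37 for Ptpn1, -0.0034 to 0.22 for Stat3, -1.87 to 0.22 for Cish and -0.17 to 0.32 for Sesn1. At 4 weeks they were -1.60 to 0.28 for Socs3, -0.17 to 0.94 for Ptpn1, -0.26 to 0.63 for Jak2, -0.23 to 0.15 for Stat3, -2.10 to 0.35 for Irs1, -0.54 to 0.63 for Irs2, -0.074 to 0.56 for Pik3r1 and -0.28 to 0.39 for Insr. In the interaction they were -0.16 to 0.96 for Ptpn1, -0.32 to 0.054 for Stat3, -0.44 to 0.73 for Irs2, -0.42 to 0.21 for Pik3r1 and -0.075 to 0.59 for Insr.

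Genes called at 2 days numbered 8, against 52 by DESeq2, 24 without a filter, 2 over all 10 samples and 4 under voom. At 4 weeks they numbered 5, against 67 by DESeq2, 3 with upper quartile scaling, 9 without a filter and 1 over all 10 samples. In the interaction they numbered 2, against 67 by DESeq2 and 0 both over all 10 samples and under voom. Pathway genes called were 1 at each time, 0 over all 10 samples and under voom, and 2 by DESeq2 at 4 weeks. Without 1 kept sample, genes called ranged from 1 to 16 at 2 days (lowest without vehicle C02, highest without Cort C06, also 5 without Cort C01 or C03), from 0 to 10 at 4 weeks (0 without vehicle C03 or C04 or Cort C08, C09 or C10, 2 without vehicle C02, 10 without Cort C07) and from 0 to 3 in the interaction. Pathway genes called ranged from 0 to 1 at each time, with 0 without vehicle C02 at 2 days, and 0 at 4 weeks without any 1 kept sample other than Cort C07. Foxo3 at 4 weeks was the 1 of the 10 genes without overlap among kept samples, and 0 were over all 10.

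No paired analysis was possible because the count columns carry barcodes and not the labels' replicate numbers. Another scaling moved the median of all genes by at most -0.04 on the log2 scale.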
